A study of Mus musculus with 4 samples.

Results

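Cytosolic chaperones and targets of heat shock factor 1 (HSF1) were followed in microglia and other myeloid cells of the mouse brain as a list of 38 genes, found by symbol among the 28692 genes of the gene table. All 38 were found. The genes were grouped by role: 9 for Hsp90 and its cochaperones, 7 for Hsp70 and Hsp110, 6 J proteins, 4 further Hsp70 cochaperones (Bag1, Bag3, Stub1 and St13), 3 mitochondrial chaperones, 7 subunits of the CCT chaperonin, and Hspb1 with Hsf1. The data were 4 single-cell RNA sequencing libraries of 1 mouse each (C57BL/6J, male, age P90, or 90 days), made from cortex and hippocampus after cold Dounce homogenisation, a mechanical dissociation without enzymes. All mice had a tail vein injection of PBS, 24 hours before they were killed per the labels, while the study's methods give another interval. All libraries therefore form 1 group (n = 4, replicates 1 to 4, where the numbers only name the mice), with no untreated or enzymatically digested library beside them, and the comparisons are between mice and between cells of one mouse.

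Chaperones bind unfolded or partly folded proteins and use ATP to help them fold. Hsp70 proteins take up clients delivered by J proteins, and Hsp90 receives some of these clients from Hsp70 through the adaptor Stip1 and finishes them with cochaperones such as Ahsa1, Fkbp4 and Ptges3. HSF1 is held inactive by chaperones in unstressed cells and, when unfolded proteins accumulate, binds heat shock elements in the promoters of chaperone genes. In microglia, the resident macrophages of the brain, these genes are of interest because tissue dissociation can itself start stress programmes.

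A cell had to show 400 or more genes and no more than 10% mitochondrial unique molecular identifiers (UMIs), which left 13002 of 13138 barcodes (2576 to 3692 per library) and 5841671 to 11267195 UMIs per library. The median was 1905, 2936, 2197 and 2786 UMIs per cell in replicates 1 to 4. Levels (CPM) are UMIs summed over the cells of a library and scaled to a library total of 1000000. The 6 microglial markers summed to 29384 to 30570 CPM, and the 3 neutrophil and 3 erythroid markers had 0 UMIs. Pairs of libraries shared 6 to 21 cell barcodes. The study's sample list gives a sort for CD45, CD11b and CX3CR1. Its methods record an interruption of the sort, with added time at room temperature, for the final animal, which it calls Sample 4. The labels carry the title numbers 2, 3, 6 and 8 for replicates 1 to 4 and mention no interruption, so replicate 4 has the last title but no label ties it to that animal.

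The heat shock element, the repeat of GAA and TTC units that HSF1 binds, is shown first because the list was drawn up in part from genes held to be HSF1 targets, so that its presence is no independent finding. Of the 38 genes, 31 had a promoter in the RefSeq table (GRCm38.p6, 250 bases before to 50 after the start), and Hsp90ab1, Hspa8, Hsp90aa1, Hspa9, St13, Cct4 and Hsf1 had none there. An element of 3 units, written GAANNTTCNNGAA or TTCNNGAANNTTC and searched on both strands, was present in 5 of the 31 (16.1%), against 0.662% of 27025 genes with a promoter and 0 of 44 other chaperone genes. Of the 10 stress-inducible members with a promoter there, 2 held such an element, and Hspa1a, Hspa1b, Dnajb1, Bag3 and Hspb1 held none. The lack of an exact match therefore does not mark a gene as no target. An element of 2 units (GAANNTTC or TTCNNGAA), which every longer element also contains, was present in 16 of the 31 (51.6%), against 17.0% of all genes. The matches below are printed on the gene's strand with the element in capitals, and they describe letters only, not binding.
Chordc1, chr9:18292260-18292288, plus strand: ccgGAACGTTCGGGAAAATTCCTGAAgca
Dnajb6, chr5:29735844-29735872, plus strand: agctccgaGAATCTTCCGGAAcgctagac
Hspe1, chr1:55088053-55088082, plus strand: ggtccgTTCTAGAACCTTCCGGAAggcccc
Hspd1, chr1:55088053-55088082, minus strand: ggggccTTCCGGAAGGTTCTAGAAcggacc
Hsph1, chr5:149636280-149636308, minus strand: gctgcagaTTCTGGAAAGTTCtcctcagt
Hspe1 and Hspd1, which encode the 2 partners of the mitochondrial folding chamber, lie head to head on chromosome 1. They hold the same element, read from opposite strands. It lies 72 to 89 bases before the start of Hspe1 and 127 to 144 bases before a start of Hspd1. The window of the other Hspd1 start (chr1:55088194-55088493) held no element. In Chordc1, a cochaperone of Hsp90, 3 overlapping matches formed one run across the start.

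The next question was how far the 4 mice agreed in these genes. Among Hsp90 and its cochaperones, Hsp90ab1 (the constitutive cytosolic Hsp90, chr17:45567775-45573271) was at 1092, 1064, 703 and 680 CPM in replicates 1 to 4. Replicates 1 and 2 were the high libraries, and their exact 95% Poisson intervals (lowest bound 1045) lay above those of the other 2 libraries (highest bound 725). Hspa8 (the constitutive cytosolic Hsp70, chr9:40800984-40810087) had 2200, 2300, 1635 and 1502 CPM. The same 2 libraries were high, and the highest level was 1.53 times the lowest, against 1.61 times for Hsp90ab1. The intervals cover counting error only and not the spread between mice.

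The stress-inducible Hsp90, Hsp90aa1, was at 294, 265, 186 and 191 CPM. Stip1, the adaptor that joins Hsp70 to Hsp90, was at 71.7, 68.4, 49.5 and 42.0 CPM, and its highest library exceeded its lowest by 1.71 times. In both, as in Hsp90ab1, replicates 1 and 2 lay above the others with no overlap of intervals. The Hsp90 cochaperones Fkbp4 (141, 146, 115 and 102 CPM) and Ahsa1 (151, 166, 130 and 114 CPM) had the same 2 libraries on top, also without overlap, as did Cacybp (118, 114, 92.8 and 93.1 CPM), which binds the E3 ligase Siah1. Ptges3, the p23 cochaperone, was at 122, 138, 109 and 99.8 CPM, in the same order by value, but the interval of replicate 1 (lower bound 114) overlapped that of replicate 3 (upper bound 118). Chordc1 (60.2, 53.4, 57.0 and 47.3 CPM) and Cdc37, the kinase-specific adaptor of Hsp90 (124, 147, 128 and 135 CPM), had other orders. The summed level of the 9 genes was 1853 ± 365 CPM (SD, n = 4).

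In the Hsp70 group the other abundant members did not share the order of Hspa8. Hspa4, a nucleotide exchange factor of the Hsp110 family, ran from 58.0 CPM in replicate 1 to 68.1 CPM in replicate 4, and Hspa14, which is part of a ribosome-associated complex, at 43.4, 44.6, 44.2 and 45.9 CPM. For both the intervals of the highest and lowest library overlapped. Hsph1, the inducible Hsp110, was at 24.8, 16.4, 13.9 and 10.7 CPM, so that replicate 1 was 2.33 times replicate 4, and without replicate 1 the ratio of the highest to the lowest library was 1.54. Hspa4l was under 10 CPM in every library (4.22 to 8.08 CPM).

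The inducible Hsp70 genes were low throughout. Hspa1a (chr17:34969190-34972156) had 140, 67, 21 and 36 UMIs in all cells of replicates 1 to 4, which were 19.8 (95% interval 16.7 to 23.4), 5.95 (4.61 to 7.55), 3.59 (2.23 to 5.495) and 4.00 CPM (2.80 to 5.54). Replicate 1 was the only library whose interval lay apart from all others, and the ratio of the highest to the lowest library, 5.52 with it, was 1.65 without it. Hspa1b had 15 UMIs in replicate 1 (2.13 CPM, 1.19 to 3.51) and 3 in each of the others (0.266 to 0.514 CPM). The 2 genes encode near-identical proteins, but no stretch of 98 bases in the last 500 bases of their transcripts was shared. How reads were split between them was not examined. The UMIs of the 2 genes were spread over many cells: 143, 66, 23 and 23 cells held any, and 0, 1, 0 and 3 cells held 3 or more. In replicate 4, those 3 cells held 16 of its 39 UMIs.

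Of the J proteins, which deliver clients to Hsp70, Dnaja1 was at 301, 260, 239 and 185 CPM and Dnajb1, a classical HSF1 target, at 80.1, 71.6, 61.8 and 62.4 CPM. Replicates 1 and 2 were again the higher ones, but the neighbouring intervals overlapped: for Dnaja1 those of replicates 2 and 3 met at 251 to 252 CPM. Dnajb6, which suppresses aggregation, was nearly level at 176, 181, 179 and 179 CPM, the smallest spread of all members tested (SD of log2(CPM + 1) 0.02). It carries the 3-unit element printed above. Dnaja2 (84.1 to 96.8 CPM), Dnajb4 (56.1 to 64.4 CPM) and Dnajc7 (110 to 126 CPM) had orders of their own.

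Of the other Hsp70 cochaperones, St13, which stabilises Hsp70 with its client, was at 249, 266, 233 and 218 CPM, with replicates 1 and 2 highest by value. Bag1 was at 103, 116, 113 and 102 CPM, the inducible Bag3 at 21.7, 18.6, 20.03 and 15.4 CPM, and the ubiquitin ligase Stub1 at 82.1, 94.1, 92.4 and 98.99 CPM, none of which followed that order. Hsf1 itself was at 25.9, 26.0, 27.2 and 25.6 CPM and its highest and lowest intervals overlapped. Hspb1, a small heat shock protein, had 3 to 18 UMIs per library.

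The mitochondrial co-chaperonin Hspe1 was at 284, 263, 202 and 199 CPM, in the order of Hsp90ab1 and with no overlap of intervals between the upper and lower pair of libraries. Its partner Hspd1, which shares its promoter region, was at 102, 104, 92.3 and 90.5 CPM. It had the same 2 libraries highest by value, but with a ratio of 1.15 against 1.43 for Hspe1 and overlapping neighbours. Hspa9, the mitochondrial Hsp70, was at 67.9, 70.3, 69.0 and 73.7 CPM and had no such order. The 7 CCT subunits, which fold actin and tubulin, all had replicates 1 and 2 highest by value, with ratios of the highest to the lowest library of 1.05 (Cct2) to 1.25 (Cct3), and in none of them did both intervals lie above the other 2. Their summed level was 970, 1019, 886 and 906 CPM.

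**Figure D1:**
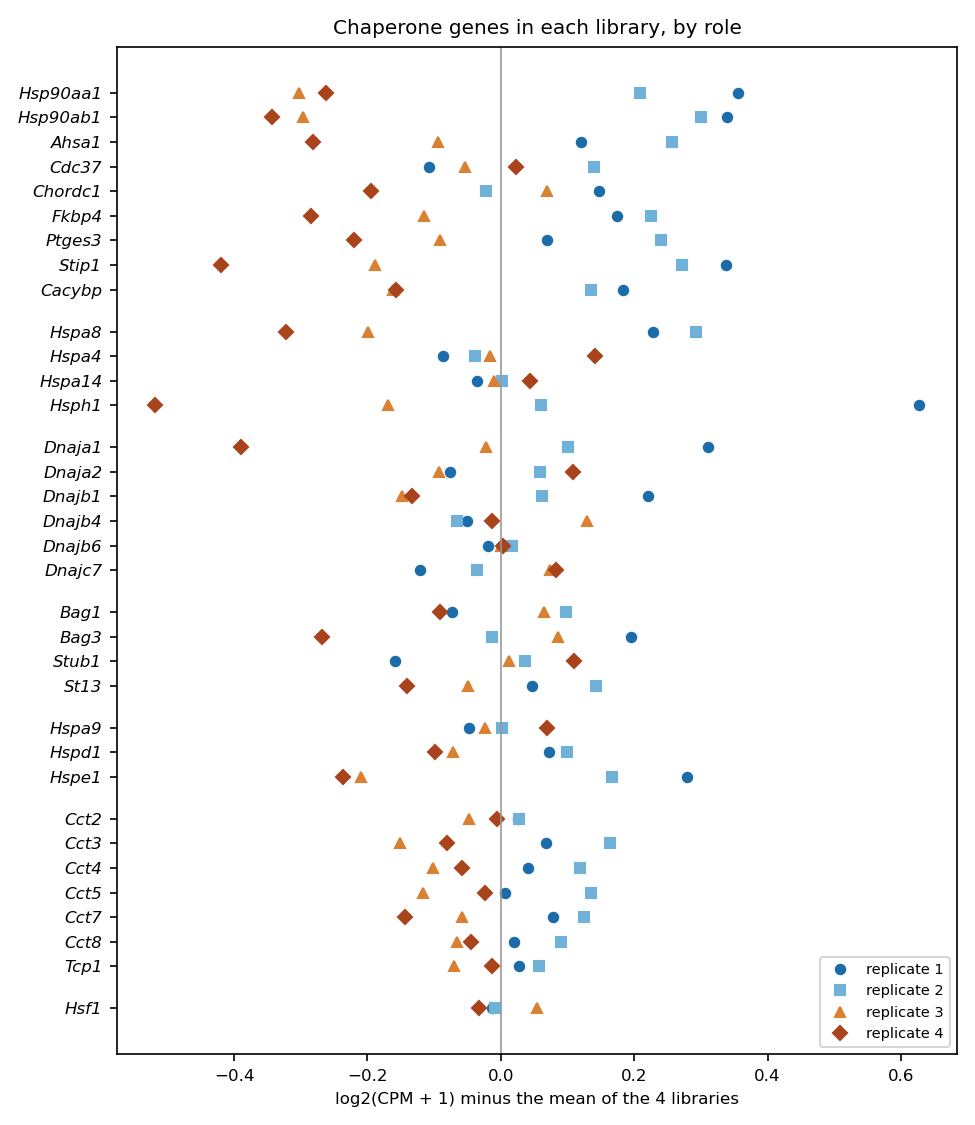
Level of the 34 chaperone genes at a mean of at least 10 CPM in each library, as log2(CPM + 1) minus the mean of the 4 libraries, ordered by role, with 1 symbol per replicate. Most Hsp90 genes, Hspa8 and Hspe1 have replicates 1 and 2 on the right and replicates 3 and 4 on the left, while Dnajb6 and Hspa14 lie close to 0.

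These orders were counted against all genes. Of the 38 members, 34 had a mean of at least 10 CPM and were tested among 7656 such genes (Hspa1a, Hspa1b, Hspa4l and Hspb1 were lower). No member had 1 library apart from the other 3 by Dixon's range test, which asks whether the gap to the nearest value is a large share of the range (0 of 34, against 4.62% of all genes tested, and 0 of 30 at 50 CPM or more, against 4.78%). The highest ratio was 0.730, for Dnajb4. The range test is not made to see a split of 2 against 2 libraries. The highest and lowest library had intervals that did not overlap in 24 of 34 members, against 33.5% of all genes tested, a measure that rises with level: among genes at a mean of at least 50 CPM it was 22 of 30 members against 51.2%. The median SD of log2(CPM + 1) was 0.12 for the members and 0.11 for all genes tested. It was 0.24 for Hsp90 and its cochaperones (9 genes) and also for the 7 tested of the 11 stress-inducible members, and 0.10 for the CCT subunits.

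The shared order of Hsp90ab1 and Hspa8 was taken as a reference, the mean of their centred log2 levels, which was 0.28, 0.30, -0.25 and -0.33 in replicates 1 to 4. These 2 genes define it and were left out of the counts. The first rule asked for the highest and lowest library of the reference (replicates 2 and 4), with no overlap of their intervals. Hspa8 met it and Hsp90ab1 did not, since its highest library was replicate 1. Of the others 7 of 32 members matched (Ahsa1, Fkbp4, Ptges3, Bag1, St13, Hspd1 and Cct7), against 3.21% of all genes tested and 6.65% of those at 50 CPM or more. That rule misses genes in which the upper or the lower libraries changed places, so a second was added after seeing the data: replicates 1 and 2 both with intervals above those of replicates 3 and 4. It was met by 6 of 32 members (Hsp90aa1, Ahsa1, Fkbp4, Stip1, Cacybp and Hspe1), against 1.74% of all genes tested and 4.16% of those at 50 CPM or more. By value alone 19 of 32 members had that order, against 15.6%, and 18 of 28 at 50 CPM or more, against 20.7%. The reverse order with separate intervals was found in 0 of 32 members, against 1.24%, and in 0 of 28 at 50 CPM or more, against 2.58%.

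Likeness to the reference was also measured as the root mean square difference of centred log2 levels over the 4 libraries, and all 7654 other genes were ranked by it. Stip1 was 2nd, Hsp90aa1 5th, Hspe1 8th, Fkbp4 14th and Ahsa1 23rd, and 8 of the 32 members were among the nearest 100. The 5 nearest genes outside the list were Madd (63.1, 63.4, 39.4 and 37.9 CPM), Arl5c, the J protein Dnaja4, the long non-coding RNA Gm26825 and Sorl1. Of these Dnaja4 (12.3, 12.4, 9.24 and 7.55 CPM) is itself a chaperone gene. Members far from the reference were Dnajc7 (rank 5809), Hspa4 (5602), Stub1 (5566) and Dnajb4 (5108).

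Among 55 chaperone genes outside the list that were found in the gene table, 46 were tested. Of these 3 had replicates 1 and 2 above the others with separate intervals, all of them proteins of the endoplasmic reticulum: Hspa5 (1087, 973, 807 and 776 CPM), Hsp90b1 (875, 930, 793 and 759 CPM) and Dnajc3 (172, 177, 139 and 135 CPM). Fkbp5, a cochaperone of Hsp90 that is a target of the glucocorticoid receptor, had the reverse order at 70.2, 58.1, 101 and 154 CPM. It had the largest SD of log2(CPM + 1) among the 46 (0.61), followed by Dnaja4 (0.32) and Hspb11 (0.27), whose levels were 19.0, 22.3, 17.8 and 13.9 CPM.

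Some other measures ran the other way. The cold-inducible RNA-binding proteins were lower in replicates 1 and 2, Cirbp at 61.4, 68.5, 118 and 138 CPM and Rbm3 at 75.1, 72.6, 127 and 143 CPM. The 6 macrophage markers, all detected, summed to 12.05, 37.5, 57.0 and 76.0 CPM in replicates 1 to 4, also lower in replicates 1 and 2. Without cells that held at least 2 UMIs of macrophage or monocyte markers the highest level was 1.61 times the lowest for Hsp90ab1 and 1.54 times for Hspa8. This filter took out few cells, leaving 3554, 3667, 2554 and 3099 of 3576, 3692, 2576 and 3158, so it could change these sums little. The 4 monocyte markers (38.8, 9.23, 32.2 and 48.2 CPM) had another order. So did the 11 immediate early genes, whose summed level was 1072, 1189, 1026 and 2666 CPM, with only replicate 4 high, and Jun was at 260, 357, 265 and 811 CPM. The median mitochondrial share of UMIs was 1.38%, 1.26%, 1.12% and 1.18%, higher in replicates 1 and 2. The part of these measures, and of the interrupted sort, in the order of the chaperone genes was not tested. Differences between mice and differences in handling cannot be told apart with 1 library per mouse.

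Within ranges of UMIs per cell the order of the libraries could be read at more equal depth. In cells with at least 1500 and under 2500 UMIs, Hsp90ab1 was at 1075, 937, 657 and 602 CPM, and in cells with at least 2500 and under 4000 UMIs at 1211, 1074, 771 and 685 CPM. In all 4 ranges replicates 1 and 2 exceeded replicates 3 and 4 in Hsp90ab1, with no overlap of intervals in 4 of 4, in Hspa8, with no overlap in 3 of 4, and in Hsp90aa1, with no overlap in 2 of 4. For Stip1, Hspe1, Fkbp4, Cacybp and Dnaja1 the order held by value in 3 of 4 ranges and for Ahsa1 in 4 of 4, mostly with overlapping intervals.

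**Figure D2:**
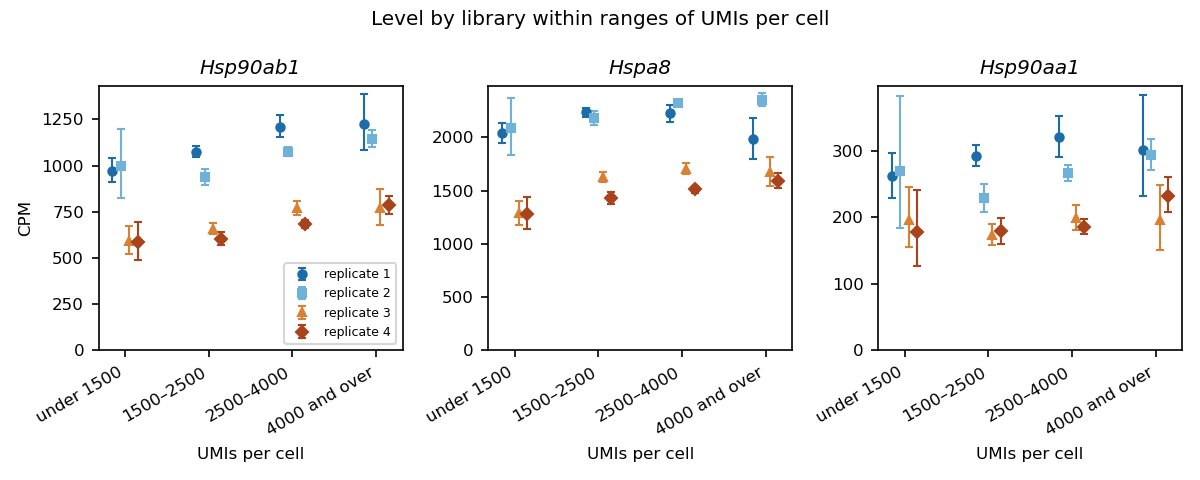
Level in CPM of Hsp90ab1, Hspa8 and Hsp90aa1 in cells of 4 ranges of UMIs per cell, by replicate, with exact 95% Poisson intervals and axes from 0. In each range the 2 upper points are replicates 1 and 2.

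The order was present in the bulk of the cells. After each cell was thinned at random to 1000 UMIs (2491 to 3669 cells per library), a cell held on average 3.26, 3.37, 2.30 and 2.16 UMIs of Hsp90ab1 and Hspa8 together, with medians of 3, 3, 2 and 2. The variance was 1.13 to 1.28 times the mean, where pure counting noise gives a value of 1. All 38 members together gave 7.26, 7.39, 5.76 and 5.55 UMIs per cell. These sums include the UMIs of Hsp90ab1 and Hspa8 above, so they are no separate sign of the order. No separate class of cells with many Hsp90ab1 and Hspa8 UMIs was visible in the distribution.

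**Figure D3:**
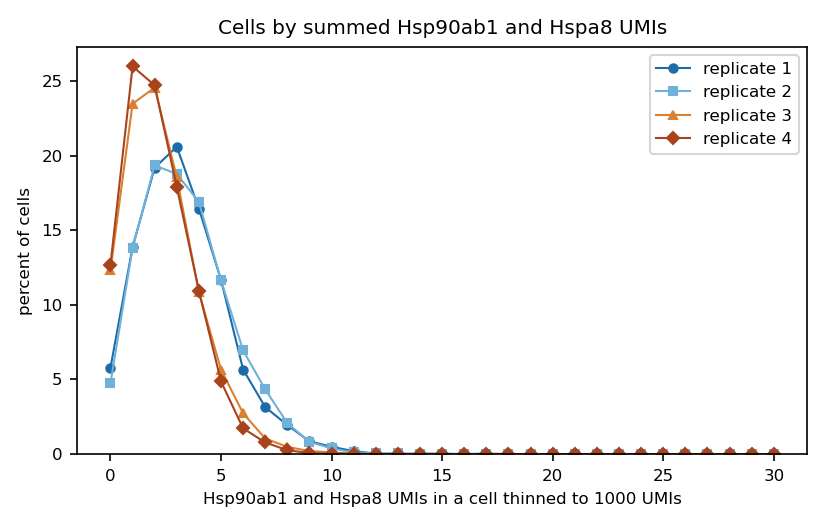
Percent of cells (vertical axis) by the summed UMIs of Hsp90ab1 and Hspa8 in a cell thinned to 1000 UMIs (horizontal axis), with 1 line per replicate. Each library has a single peak, and the lines of replicates 3 and 4 lie to the left of those of replicates 1 and 2.

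Co-variation across single cells was weak. Over the 435 pairs of the 30 members at a mean of at least 50 CPM, the median Pearson correlation within libraries, averaged over the 4, was 0.00323, and over all 4800351 pairs of the 3099 such genes it was -2.4e-05. The highest pair was Hsp90ab1 with Hspa8 at 0.0536 (0.0697, 0.0594, 0.0564 and 0.0288 in replicates 1 to 4), the only member pair at 0.05 or more (1 of 435, against 0.0466% of all pairs). Each of these 2 genes was the other's highest partner among 3098 genes. Next came Hsp90aa1 with Hsp90ab1 at 0.0477, positive in every library (0.0360 to 0.0588), and Cct3 with Hsp90ab1 at 0.0343 (0.0172 to 0.0591). A correlation above 0 in every library was found for 62 of 435 member pairs, against 6.42% of all pairs. The cells of a library share its preparation and the genes compete for the same 1000 UMIs, and at these counts a weak correlation is no finding.

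Cells above and below the median depth of their library were then compared, with the counts summed per library in each of the 2 sets of cells and the library as a block in edgeR's quasi-likelihood test. Hsp90ab1 was at 1134, 1120, 745 and 730 CPM in the deeper cells of replicates 1 to 4 and at 1028, 974, 633 and 599 CPM in the shallower ones, higher in the deeper cells of 4 of 4 libraries. The log2 difference was 0.24 ± 0.02 (SE, adjusted p = 2.78e-13 over all genes tested by edgeR). Hspe1 rose by 0.23 ± 0.04, Hsp90aa1 by 0.21 ± 0.04 and Hspa8 by 0.11 ± 0.02 on the same scale. In all, 10 of 36 members tested were higher in deeper cells, against 7.5% of 10081 genes, and 1 was lower, against 5.57%. The other 6 that rose were Stip1, Cdc37, Bag1, St13, Tcp1 and Cct5 (0.15 to 0.24). Dnajb4, which fell by 0.24 ± 0.07, was at 50.2, 53.2, 58.5 and 55.2 CPM in deeper and 66.8, 60.7, 74.1 and 63.1 CPM in shallower cells. Of the 11 stress-inducible members 9 were tested, and Hsp90aa1 was the only one called. The other 8 did not pass, with log2 differences from -0.15 (Hspa1a) to 0.11 (Chordc1), 5 of them below 0 (Hspa1a, Hsph1, Dnajb1, Bag3 and Dnaja1) and 3 above 0 (Chordc1, Ahsa1 and Hspa4l). The median log2 difference was 0.07 over the members and -0.01 over all genes. A call is easier at a higher level, and no share of calls at like level was computed here. In the comparison between libraries the members tested had a median level of 113 CPM, against 37.9 CPM for all genes tested. Without the library block, which treats the same sums as if they came from separate mice, 0 of 36 members and 1 gene in all passed at an adjusted p under 0.05, and 4 members passed at an unadjusted one.

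The study's question of a dissociation response made the relation to immediate early genes the last comparison. Within each library, cells thinned to 1000 UMIs with at least 3 UMIs of the 11 immediate early genes (409, 492, 268 and 1312 cells) were set against cells with none (1309, 1210, 942 and 496 cells). Hsp90ab1 was at 1117, 929, 612 and 700 CPM in cells with many immediate early UMIs and at 1073, 1105, 674 and 645 CPM in cells with none, higher in 2 libraries and lower in 2. The log2 difference was -0.06 (95% interval -0.16 to 0.04). For Hspa8 it was -0.05 (-0.12 to 0.02). Hspa8 was at 2090, 2169, 1668 and 1524 CPM in cells with many immediate early UMIs and at 2188, 2415, 1624 and 1454 CPM in cells with none. A cell with none among 1000 UMIs need not be free of immediate early expression. Btg2, Jun and Junb had the highest mean levels of the 11 genes (466, 423 and 353 CPM), so the count of UMIs rests largely on them. The part of these genes in the order of the libraries was not tested.

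None of the 34 members tested was called between these cells by edgeR, against 0.173% of 6931 genes (12 genes, led by the chemokines Ccl4 and Ccl3). DESeq2 called 0 members, with 1 at an unadjusted p under 0.05. By edgeR 2 members had an unadjusted p under 0.05, Cct3, with a log2 difference of -0.46 ± 0.12 (adjusted p = 0.123), lower in 4 of 4 libraries, and Hsp90aa1, with 0.20 ± 0.09 (adjusted p = 0.724 by edgeR), higher in 4 of 4. For low members the comparison was imprecise: the interval of Hsph1 ran from -0.06 to 1.18.

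**Figure D4:**
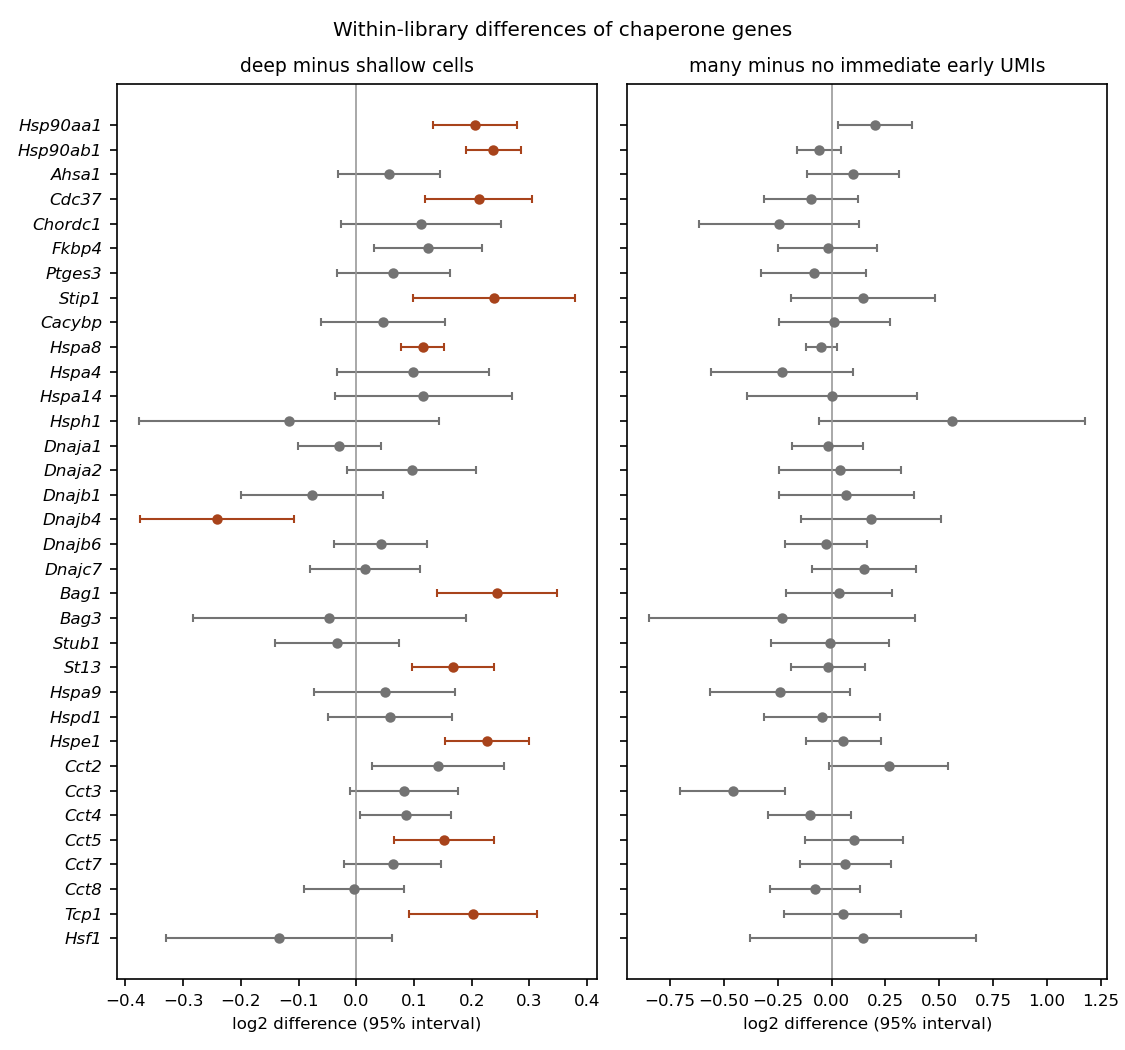
Log2 differences of 34 chaperone genes within libraries, with 95% intervals from edgeR, between deeper and shallower cells (left) and between cells with at least 3 and with 0 immediate early UMIs (right). Genes with an adjusted p under 0.05 are in red: 10 lie to the right of 0 and Dnajb4 to the left on the left side, and there are none on the right side.

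Cells with at least 1 UMI of Hspa1a or Hspa1b after thinning (79, 19, 10 and 9 cells) were compared with all other cells in the same way. Again 0 of 34 members were called by edgeR, against 0.025% of 7987 genes, with 1 member at an unadjusted p under 0.05 and 0 called by DESeq2. With so few cells the intervals were wide. For Hsp90ab1 the log2 difference was -0.23 with an interval from -0.86 to 0.40, and for Hsph1 0.83 with an interval from -0.65 to 2.31, so that a change in Hsph1 of that size was not detectable at this depth. The median log2 difference was -0.44 over all genes and -0.27 over the members. Scaled to library totals alone these were -0.05 and 0.13, so a negative value here need not be a fall. Hsp90ab1 was at 1114, 1158, 1700 and 444 CPM in cells with these UMIs and at 1078, 1052, 666 and 676 CPM in the others.

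Some members share sequence with other loci, which a 3′ count cannot always resolve. Of the 98-base stretches in the last 500 bases of their transcripts in GENCODE M21, 58.8% of those of Hspa8, 35.1% of Dnaja1, 34.7% of Hspe1, 17.5% of Hsp90aa1 and 16.1% of Ahsa1 also occurred in transcripts of other genes, mostly pseudogenes. Hsp90ab1, Stip1 and Fkbp4 shared none. The part of shared sequence in the order of the libraries was not tested.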

How the data were processed

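The deposited values were UMI counts per gene and cell, 1 matrix per library, which the authors made from 10x Genomics 3′ libraries with Cell Ranger 2.2.0 on the mm10 build (GRCm38) with a filtered Ensembl gene set. Nothing had been normalised and cells had been called by Cell Ranger. Doublets were not removed here. Counts were summed per library and scaled to CPM, and genes at a mean of at least 10 CPM were tested by Dixon's range test (two-sided, 95%) on log2(CPM + 1). Intervals are exact Poisson intervals at 95% and cover counting error only. Cells were thinned to 1000 UMIs for co-variation (values scaled to 10000 UMIs and log-transformed) and for the immediate early and Hspa1 comparisons. Within-library comparisons used edgeR 4.0.16 with Benjamini-Hochberg adjustment over all genes tested, DESeq2 1.42.0 being an alternative. The scripts were checked on simulated data. Named outside the 38 genes were the 5 genes nearest to the reference, the 3 other chaperones with the largest SD and the highest immediate early genes. Cirbp, Rbm3, Ccl3, Ccl4, Dnajc5, Ppp5c, Fos, Egr1, Zfp36, Ier2, Dusp1 and the genes named in counts of 5 or fewer were chosen after their values were seen. The members and gene lists were chosen with earlier results of these data known. Alternatives were other scalings, filters on cells and genes, thinning depths, intervals, leaving out each library and no library block. Every pair of libraries differed beyond the noise of sampling (chi-square per degree of freedom 4.95 to 11.3), so none was a duplicate.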

Additional observations from a re-analysis of the deposited data

Results flagged for a closer look

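The values per library that were tested numbered 71, and 4 had 1 library apart by Dixon's range test, where chance gives about 1 in 20. The 71 were chosen values, and Btg2 and Junb are part of both sums below, so the 4 are not independent. All 4 concern the immediate early genes and replicate 4, and none of the 34 members tested was among them. Among genes outside the 71, Zfp36, Ier2, Dusp1 and Egr1 also had replicate 4 apart. So did Ppp5c, a chaperone gene that is no member, while Dnajc5, another, had replicate 1 apart. The study had already reported a signature with such genes in its Sample 4, which no label ties to replicate 4. The immediate early genes summed to 2666 CPM in replicate 4 and to 1026 to 1189 CPM in the others (ratio of gap to range 0.901). The highest library was 2.60 times the lowest for this sum. It was 21.8 times for Fos (6.52, 13.4, 10.6 and 142 CPM in replicates 1 to 4) and 28.4 times for Egr1 (3.68, 6.92, 6.16 and 105 CPM). Fos did not pass the range test (ratio 0.780). In cells thinned to 1000 UMIs they gave 2.65 UMIs per cell in replicate 4 and 1.07 to 1.20 in the others (ratio 0.918). Btg2 was at 765 CPM in replicate 4 and at 345 to 382 CPM in the others (ratio 0.871). Junb was at 502 CPM in replicate 4 and at 294 to 311 CPM in the others (ratio 0.893). Hsp90ab1 and Hspa8 had their low levels in replicates 3 and 4 together, as did 19 of the 32 other members tested, by value. The remaining members had other orders.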

How the results depend on the processing

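Intervals reflect counting error, n is 4 mice, and members under 10 CPM were not tested between libraries. Of 107 alternatives for the main results, 97 kept the count or median within a set margin of the main value, and 10 moved outside it. A count within the margin could still change, as the ranges below show. These results are counts and a median, so a reversed direction could not show in them. The number of members with 1 library apart was 0, and it was 1 with at least 1000 genes per cell (Hspa4), without the deepest 1% of cells (Hsf1) or without cells with macrophage or monocyte marker UMIs (Dnajb6), and 2 under TMM or DESeq2 size factors (Dnajb4 and Dnajb6). Matches to the reference, 7 with all libraries, ranged from 8 to 11 when 1 library was left out, with 11 without replicate 1 and 11 without replicate 2. The order of replicates 1 and 2 above 3 and 4 was met by 5 to 7 members over all alternatives. Members with separate highest and lowest intervals ranged from 18 to 24 when 1 library was left out. Median co-variation was 0.00548 with thinning to 2000 UMIs and 0.00295 to 0.00485 when 1 library was left out. Between deeper and shallower cells 7 members were called by DESeq2, which gave Dnajb4 and Stip1 no adjusted p, 0 with no replicate block, and 8 to 11 when 1 library was left out. The immediate early and Hspa1 comparisons called 0 members under every alternative run, also when 1 library was left out, although 104 genes were called in the Hspa1 comparison without replicate 1. The causes of these changes were not tested. Scaling shifted the median of all genes by at most 0.02 on the log2 scale.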
